A study of Mus musculus with 28 samples.

Results

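The genes described here are the keratins, the claudins, the desmosome genes and E-cadherin as listed in the expression table of a mouse lung carcinoma series. They were taken by name: every listed symbol made of Krt, Cldn, Dsg, Dsc or Pkp followed by a number, plus Dsp, Jup, Cdh1 and Epcam. This gave 26 genes of 43143 listed features, of which 18509 carry a gene symbol. The 26 comprise 12 keratins, 6 claudins, 7 desmosome genes and Cdh1. GENCODE vM21 holds 90 gene names that meet the rule, and the others, among them Epcam, Cldn3, Cldn4, Cldn7, Krt1 and Krt10, are not analysed here. For 19 of the 26 the value is that of a gene. For the other 7 it is that of a single transcript: Krt80-203 and Pkp2-203 retain an intron, Krt14-202, Krt19-203 and Jup-209 are processed transcripts, Pkp4-211 is a target of nonsense-mediated decay and Pkp3-204 is protein coding. Values for these 7 therefore do not measure the coding mRNA of the gene, except for Pkp3, and the gene symbol below stands for that transcript.

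The cells were 3LL, the Lewis lung carcinoma line of C57BL/6 mice. The groups were wild-type (WT) cells, KEAP1-KO cells, in which CRISPR-Cas9 had disrupted Keap1, and KEAP1-NRF2-DKO cells (DKO below), in which Nrf2 had been disrupted in KEAP1-KO cells, so that the DKO group also lacks KEAP1. Each genotype was profiled in culture, and the same lines were profiled as subcutaneous tumors grown for 10 days in both flanks of male albino C57BL/6 mice that were 6 weeks old at transplantation. Experiment A paired WT tumors in the left flank with KEAP1-KO tumors in the right, and Experiment B paired KEAP1-KO tumors in the left flank with DKO tumors in the right, which makes 7 groups of 4 libraries. The edited lines were raised from single colonies, so that clone and genotype cannot be told apart, and neither can flank and genotype. The hosts had an intact immune system, and a tumor library can hold host RNA, such as that of vessels, leukocytes and connective tissue, together with that of the cancer cells. In such bulk samples fewer cells of a type and less RNA per cell cannot be told apart.

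KEAP1 holds the transcription factor NRF2 at a low level by marking it for degradation, and cells without KEAP1 accumulate NRF2. Keratins are the intermediate filament proteins of epithelial cells and assemble as pairs of a type I and a type II chain, so that Krt8 (type II) and Krt18 (type I) form the filaments of simple epithelia, lung adenocarcinoma included, whereas Krt5 and Krt14 form those of the basal layer of the epidermis. Desmosomes anchor these filaments at cell contacts. Their cadherins, the desmogleins and desmocollins, bind plakoglobin (Jup) and the plakophilins (Pkp), which bind desmoplakin (Dsp), which in turn binds keratin. Claudins form the strands of tight junctions, and E-cadherin (Cdh1) holds epithelial cells together at adherens junctions. Loss of Cdh1 and of desmosomes, often under the repressors Zeb1, Snai1 and Snai2, is a known mark of epithelial cells that turn mesenchymal.

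Krt8 had the highest normalized counts of the 26 genes and Krt18, its filament partner, was called in every genotype comparison, and the sequences just upstream of their starts are therefore shown. They lie on chromosome 15 (RefSeq, GRCm38.p6) with start sites at 102004342 for Krt8 on the minus strand and 102028216 for Krt18 on the plus strand, 23874 bases apart, and are read in opposite directions away from each other. Each sequence gives the 250 bases before the start, 5′ to 3′ on the gene's own strand, at chr15:102004343-102004592 for Krt8 and chr15:102027966-102028215 for Krt18. The capitals mark the letters CACCTG, the E-box bound by the Zeb and Snail repressors.
Krt8: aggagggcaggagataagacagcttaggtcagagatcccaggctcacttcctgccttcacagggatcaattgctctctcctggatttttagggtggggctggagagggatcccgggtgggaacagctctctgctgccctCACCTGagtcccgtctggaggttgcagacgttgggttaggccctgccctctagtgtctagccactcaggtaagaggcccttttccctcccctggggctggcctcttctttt
Krt18: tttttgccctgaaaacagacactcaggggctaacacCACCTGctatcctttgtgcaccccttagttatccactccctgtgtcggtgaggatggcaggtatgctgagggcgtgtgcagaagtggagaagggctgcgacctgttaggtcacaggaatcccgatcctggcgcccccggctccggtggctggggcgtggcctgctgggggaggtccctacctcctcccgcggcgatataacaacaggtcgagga
The match begins 111 bases before the Krt8 start and 214 bases before the Krt18 start. Searched on both strands, CACCTG was in 17.2% of all 32851 windows of the same length, and in 5 of the 19 windows of the 15 members that had one (Krt8, Krt18, Krt5, Krt7 and Pkp4). The core of the antioxidant response element, TGACNNNGC, to which NRF2 binds, was in 10.2% of all windows and in those of Cldn15 and Krt20. The AP-1 letters TGANTCA were in 6.75% of all windows and in 3 of the 19 (Cldn15 and both windows of Krt13), and TATAAA was in 12.4% of all windows and in that of Krt20. A match is a description of these letters and not of a bound site.

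Values are normalized counts, obtained by undoing the deposited log2(normalized count + 4). Differences are log2 differences on that deposited scale, which understates the change of low genes, and each is given with its standard error and the limma p-value adjusted over all features tested. The libraries held 4222365 to 7524280 recovered reads. Keap1 was at 649 to 751 normalized counts in WT cells against 153 to 197 in the edited cells, and at 436 to 501 in WT tumors against 136 to 229 in the edited tumors. Nqo1, a textbook NRF2 target, was at 474 to 563 in WT cells, 5073 to 5943 in KEAP1-KO cells and 96.5 to 112 in DKO cells, and ranged from 3890 to 5816 in KEAP1-KO tumors against 34.1 to 72.0 in DKO tumors. The Nfe2l2 feature is a processed transcript and is no check of the Nrf2 edit. A pair of tumor libraries stood apart for the genes described here. KEAP1-KO tumor replicate 4 of Experiment B had the highest value of all tumors for 11 of the 26 genes, and WT tumor replicate 1 of Experiment A for 5 (Cldn1, Jup, Krt19, Krt80 and Pkp2). In that WT tumor Cdh2, the N-cadherin gene, was at 298 normalized counts against a median of 8.32 over the 4 WT tumors. Skeletal muscle markers (11 of 15 analysed) summed to 87.8 to 1632 in DKO tumors and to 54.4 to 292 in the other tumors, and the part of these libraries and markers in the results was not tested beyond leaving libraries out.

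Krt8 dominated the 26 genes, with 61.3 to 83.5% of their summed normalized counts in a library, and the 26 together made 0.0465 to 0.0887% of a library. With detection set as 5 or more normalized counts in 4 or more libraries, 18 of the 26 were detected both in culture and in tumors. Pkp3 was detected in culture only. Cdh1, Cldn5, Krt20 and Krt7 were detected in tumors only, and Cldn1, Cldn23 and Krt19 in neither. At a minimum of 10 the numbers were 11 in both, 4 in tumors only (Cdh1, Cldn5, Krt17 and Krt20), 11 in neither and none in culture only. In normalized counts, which are not divided by length, all 3LL cultures held Krt8 far above the other keratins and almost no Cdh1.

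**Figure D1:**
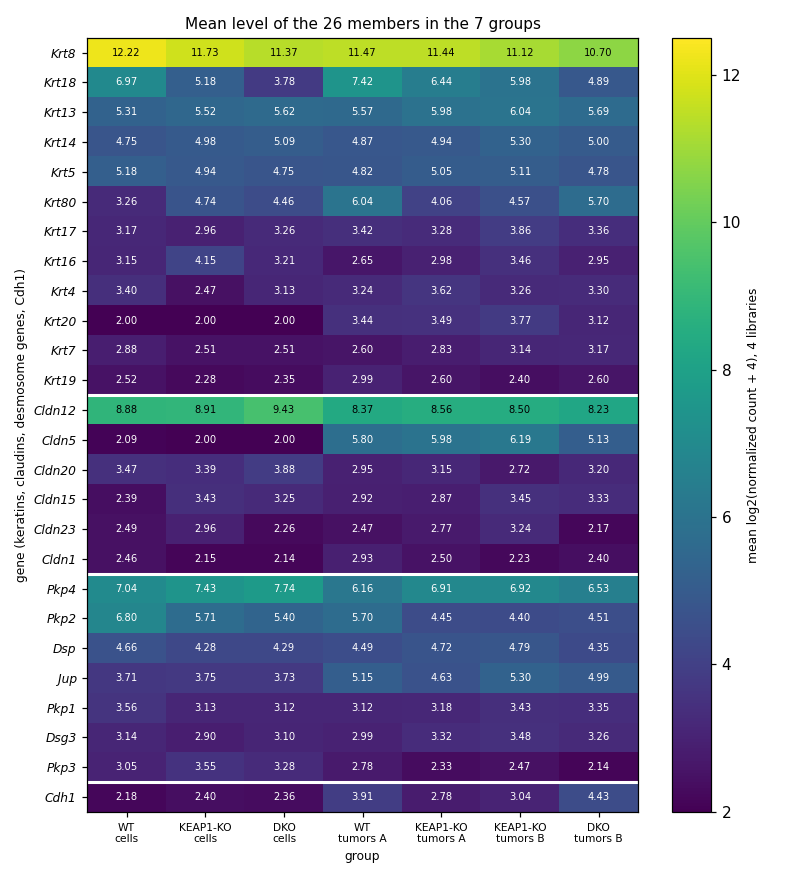
Level, as colour, of each of the 26 genes in each of the 7 groups, as the mean over 4 libraries of the deposited log2(normalized count + 4), where 2 is the value of a count of 0. Krt8 is the highest in every group, and Cldn5, Cdh1 and Krt20 are near the value of 0 in the 3 culture groups.

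In culture, the simple-epithelium pair stepped down with each edit. Krt8 was at 5128, 4419, 4936 and 4598 normalized counts in WT cells, at 3205, 3500.0, 3340.1 and 3497 in KEAP1-KO cells and at 2614, 2682, 2625 and 2623 in DKO cells. The 3 genotypes did not overlap, and the log2 differences were -0.49 ± 0.05 (SE), limma adjusted p = 1.36e-05 for KEAP1-KO against WT and -0.36 ± 0.05 (SE), limma adjusted p = 0.000317 for DKO against KEAP1-KO. Krt18 was at 123, 103, 134 and 128 in WT cells, at 34.4, 34.9, 33 and 26.9 in KEAP1-KO cells and at 10.7, 9.46, 7.33 and 12 in DKO cells. Again no genotype overlapped another, with log2 differences of -1.79 ± 0.15 (SE), limma adjusted p = 3.59e-06 for KEAP1-KO against WT, -1.39 ± 0.15 (SE), limma adjusted p = 5.35e-05 for DKO against KEAP1-KO, and -3.19 ± 0.15 (SE), limma adjusted p = 2.31e-08 for DKO against WT. Per kilobase of the single annotated transcript of each (1958 bases for Krt8, 1437 for Krt18), the ratio of Krt8 to Krt18 was 28.9 ± 2.59 in WT cells, 77.9 ± 12.02 in KEAP1-KO cells and 203 ± 44.5 in DKO cells (SD, n = 4), and no library of one genotype overlapped those of another.

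In tumors Krt18 fell at each step, whereas the Krt8 differences ran in the same direction but did not pass the test. Krt18 was at 130.2, 214, 196 and 141 in WT tumors and at 101, 75.2, 92.7 and 67.2 in Experiment A KEAP1-KO tumors, and at 69.8, 53.1, 61.9 and 53.1 in KEAP1-KO tumors and 17.5, 29.9, 31.6 and 25.6 in DKO tumors of Experiment B. Neither pair of groups overlapped, and the log2 differences were -0.97 ± 0.19 (SE), limma adjusted p = 0.00275 for KEAP1-KO against WT and -1.09 ± 0.19 (SE), limma adjusted p = 0.00167 for DKO against KEAP1-KO. Krt8 was at 2426, 2730, 3144 and 3068 in WT tumors and at 3316, 2611, 2174 and 3115 in KEAP1-KO tumors of Experiment A. These groups overlapped, with a log2 difference of -0.03 ± 0.14 (SE), limma adjusted p = 0.931 (95% interval -0.33 to 0.26). Krt8 was at 2050.0, 2059, 2577 and 2252 in KEAP1-KO tumors and at 1504, 2082, 1439 and 1698 in DKO tumors of Experiment B, which overlapped and differed by -0.42 ± 0.14 (SE), limma adjusted p = 0.0779. The ratio of Krt8 to Krt18 per kilobase was 12.7 ± 2.82 in WT tumors, 25.2 ± 6.92 and 27.9 ± 4.40 in the KEAP1-KO tumors of Experiments A and B, and 49.1 ± 12.1 in DKO tumors (SD, n = 4), below the ratio of the same genotype in culture in each case. Tested directly, the log2 effect of KEAP1 loss in tumors minus that in culture was 0.82 (adjusted p = 0.0517) for Krt18 and 0.46 (adjusted p = 0.104) for Krt8, and both missed the threshold. The same difference for NRF2 loss was -0.06 (adjusted p = 0.926) for Krt8 (95% interval -0.39 to 0.27), and Krt18 was not called in that test either. Reads that Krt8 or Krt18 share with their pseudogenes were divided by the quantification tool and are a limit on both levels.

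**Figure D2:**
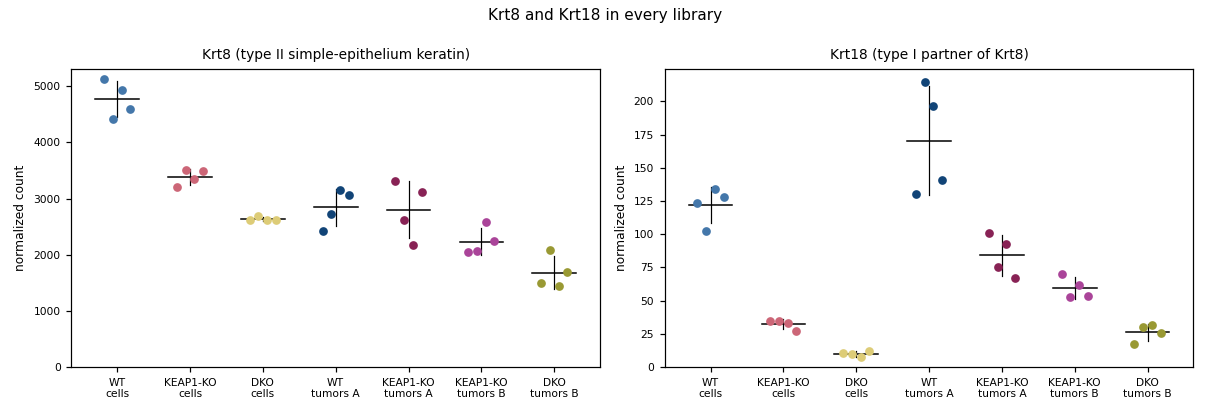
Normalized counts of Krt8 and Krt18 in each of the 28 libraries (points) by group, with the group mean (horizontal line) and its SD (vertical line). Krt18 falls from WT to KEAP1-KO to DKO in culture and within each tumor experiment without overlap, whereas Krt8 does so without overlap in culture only.

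Over all these genes, 5 of the 19 tested in culture changed between KEAP1-KO and WT cells, where 15.5% of all features tested did, 8.13% higher and 7.33% lower (Krt80 higher, and Krt18, Pkp2, Krt8 and Krt4 lower). Their median log2 difference was -0.08, against 0.02 over all features. Between DKO and KEAP1-KO cells 3 of 19 changed (Cldn12 higher, Krt18 and Krt8 lower), against 8.83% of all features, 3.98% higher and 4.85% lower, with medians of -0.01 and -0.03, and after quantile normalization 2 rose and 2 fell. Between DKO and WT cells 6 of 19 changed (Krt80, Pkp4 and Cldn12 higher, Krt18, Pkp2 and Krt8 lower), against 17.7%, 8.46% higher and 9.2% lower, with medians of 0.07 and -0.01. In tumors 4 of 22 changed between KEAP1-KO and WT, all lower (Krt80, Pkp2, Cdh1 and Krt18), against 13.1% of all features, 5.61% higher and 7.49% lower, with medians of 0.12 and -0.03. Between DKO and KEAP1-KO tumors 4 of 22 changed (Cdh1 and Krt80 higher, Cldn5 and Krt18 lower), against 8.86%, 4.22% higher and 4.64% lower, with medians of -0.31 and 0.00. Without the 2 tumor libraries that stood apart, a setting chosen after seeing the data, these last counts were 3 and 3. The comparisons that share KEAP1-KO or WT libraries are not independent of each other. The replicates of a culture group are not said to come from separate cultures, so that their p-values measure only the spread between these samples.

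**Figure D3:**
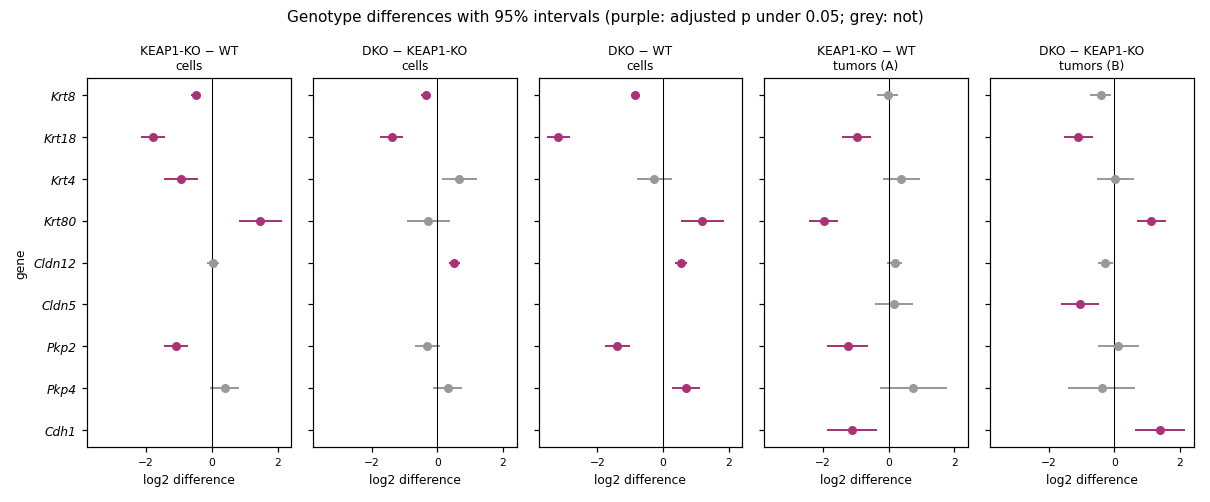
Log2 difference with its 95% interval (limma) in the genotype comparisons in culture and in tumors, for the genes called in any of them. Purple points passed an adjusted p of 0.05 and grey points did not. Genes that were tested but never called are not drawn, so the figure does not show the whole tested set. Krt18 is below 0 in every comparison, and Krt80 is above 0 for KEAP1-KO against WT in culture and below 0 for the same comparison in tumors.

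Krt80, a type II keratin of differentiating epithelia that is measured here by its intron-retaining transcript, changed in opposite directions in culture and in tumors. It was at 3.42, 6.47, 10.8 and 3.22 in WT cells, at 22.3, 14.9, 31.1 and 25.1 in KEAP1-KO cells and at 14.7, 13.7, 22 and 23.1 in DKO cells. Both edited groups lay above all WT cells, with differences of 1.48 ± 0.29 (SE), limma adjusted p = 0.00321 for KEAP1-KO and 1.20 ± 0.29 (SE), limma adjusted p = 0.0112 for DKO. Krt80 in tumors was at 81.7, 64.8, 60.3 and 45 in WT, 16.7, 10.4, 13.5 and 10.7 in KEAP1-KO of Experiment A, 14, 21.4, 19.3 and 26 in KEAP1-KO of Experiment B and 44.9, 50.5, 47.8 and 48.6 in DKO. The KEAP1-KO tumors lay below all WT and all DKO tumors. The difference was -1.98 ± 0.19 (SE), limma adjusted p = 3.55e-06 for KEAP1-KO against WT and 1.13 ± 0.19 (SE), limma adjusted p = 0.00126 for DKO against KEAP1-KO. Tested directly, the effect of KEAP1 loss in tumors minus that in culture was -3.46 ± 0.33 (SE), limma adjusted p = 1.22e-07, and the effect of NRF2 loss differed by 1.41 ± 0.33 (SE), limma adjusted p = 0.0128. Leukocyte markers (10 of 10 analysed) moved with Krt80 in the tumors. They summed to 6012 to 7329 in WT, 1754 to 2421 and 3019 to 3642 in KEAP1-KO of Experiments A and B and 5307 to 7313 in DKO tumors, against 9.12 to 123 in culture. Between KEAP1-KO and WT tumors 7 of their 8 tested members fell, against 7.49% of all features. Between DKO and KEAP1-KO tumors 6 of 8 rose, against 4.22% of all features. Other marker lists were also lower in KEAP1-KO tumors, and their counts stand beside the same 7.49% of all features falling and 4.22% rising. Fibroblast markers (8 of 8 analysed) summed to 4924 to 12420 in WT, 2026 to 4920 and 2999 to 3710 in KEAP1-KO of Experiments A and B and 10870 to 15120 in DKO tumors, with 2 of 8 falling and then 3 of 8 rising. Adipocyte markers (5 of 9) summed to 21.0 to 45.8 in WT, 11.1 to 18.5 and 3.99 to 19.2 in KEAP1-KO and 25.2 to 59.7 in DKO tumors, with 1 of 4 falling and 3 of 4 rising. Lung epithelium markers (3 of 12) summed to 527 to 673 in WT, 198 to 249 and 211 to 269 in KEAP1-KO and 410 to 575 in DKO tumors, with 2 of 3 falling and 2 of 3 rising. In culture the lung list was at 482 to 548 in WT, 317 to 386 in KEAP1-KO and 528 to 579.8 in DKO cells. The part of these lists in the tumor values of Krt80 was not tested.

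Krt4, a type II keratin of the lining of the mouth and oesophagus, stayed at single normalized counts. It was at 6.84, 6.47, 5.42 and 7.51 in WT cells, at 0.929, 1.75, 0.943 and 2.69 in KEAP1-KO cells and at 4.89, 7.36, 3.14 and 4.27 in DKO cells. The KEAP1-KO cells lay below both other groups, with a difference of -0.93 ± 0.23 (SE), limma adjusted p = 0.0136 against WT, whereas DKO against KEAP1-KO cells missed the threshold (0.67, adjusted p = 0.102). Krt4 passed the expression filter of the culture fit through the WT cells, where it was high. Its place among the genes tested in culture, and its count among those called, rest on that group. In tumors Krt4 ranged over 2.69 to 7.64 in WT, 6.67 to 9.25 and 3.39 to 7.98 in KEAP1-KO and 4.05 to 9.27 in DKO, which all overlapped. The effect of KEAP1 loss in tumors minus that in culture was 1.31 ± 0.30 (SE), limma adjusted p = 0.00757.

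Of the keratins of stratified epithelia, Krt5, Krt13, Krt14 and Krt16 passed no test as higher in tumors than in culture, and Krt17 was higher in 1 of the 4 tumor groups. Krt4 was higher in both KEAP1-KO tumor groups than in KEAP1-KO cells (1.15, limma adjusted p = 8.8e-05, and 0.79, limma adjusted p = 0.00415). Krt5, the type II chain of basal keratinocytes, was at 29.6, 35.6, 35.8 and 29 in WT cells, 22.3, 32.3, 19.8 and 34.9 in KEAP1-KO cells and 32.2, 24.2, 14.7 and 23.9 in DKO cells. Krt5 in tumors was at 25.1, 24.8, 16.4 and 33.1 in WT, 38.9, 54.3, 18.4 and 17.5 in KEAP1-KO of Experiment A, 21.9, 21.4, 32.5 and 55.4 in KEAP1-KO of Experiment B and 20.8, 35, 29.1 and 13.6 in DKO. All groups overlapped in part, and the tumor-minus-culture differences were -0.36 (adjusted p = 0.401), 0.11 (adjusted p = 0.82), 0.17 (adjusted p = 0.711) and 0.02 (adjusted p = 0.967) in that order of tumor groups. Krt14, its type I partner, measured by a processed transcript, was at 28.5, 25.9, 21.7 and 17.2 in WT cells, 14.9, 28.8, 30.2 and 43 in KEAP1-KO cells and 39.1, 28.4, 29.3 and 24.8 in DKO cells. Krt14 in tumors was at 18, 19.1, 26.5 and 43.3 in WT, 24.5, 42.8, 22.2 and 21.4 in KEAP1-KO of Experiment A, 26.9, 22.3, 31.4 and 80.2 in KEAP1-KO of Experiment B and 28.5, 28.8, 32.4 and 23 in DKO. The value of 80.2 in KEAP1-KO replicate 4 of Experiment B was the highest of all 28 libraries, and the other tumors ranged from 18 to 43.3 against 14.9 to 43 in culture. Krt17, a keratin of hair follicles and wounded skin, was at 6.84, 6.47, 2.17 and 5.36 in WT cells, 2.79, 5.24, 3.77 and 3.58 in KEAP1-KO cells and 6.84, 5.25, 7.33 and 3.42 in DKO cells. Krt17 in tumors was at 4.49, 5.72, 5.48 and 12.7 in WT, 3.33, 5.78, 11.6 and 3.89 in KEAP1-KO of Experiment A, 5.99, 9.31, 8.12 and 23.7 in KEAP1-KO of Experiment B and 4.38, 11.3, 6.48 and 4.26 in DKO. The difference passed the test for KEAP1-KO of Experiment B against KEAP1-KO cells (0.90, SE 0.31, limma adjusted p = 0.022), and without replicate 4 it was 0.59 with an adjusted p of 0.126. Krt13, of internal stratified epithelia, and Krt16, of wounded skin, ranged over 18.2 to 59.6 and 2.15 to 17 in culture and over 35.6 to 99.5 and 0.898 to 19.2 in tumors. In culture Krt16 was at 9.61 to 17 in KEAP1-KO cells, above WT (2.15 to 9.12) and DKO cells (2.56 to 8.79). It was not called there, and DKO against KEAP1-KO cells gave -0.93 (limma adjusted p = 0.108). The tumor-minus-culture differences of Krt13 were 0.26 (adjusted p = 0.472), 0.46 (adjusted p = 0.174), 0.52 (adjusted p = 0.122) and 0.07 (adjusted p = 0.868). Krt14, Krt16 and Krt17 are close in sequence, and the division of shared reads among them is uncertain.

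Skin markers were measured beside these keratins, since the tumors grew under the skin. Of 31 genes fixed for the cornified epidermis 12 were analysed, and they summed to 94.4 to 149 normalized counts in culture and 102 to 364 in tumors, and it was the WT tumors (102 to 217) that overlapped with their cultures (94.4 to 131). KEAP1-KO tumors, at 235 to 364 in Experiment A and 156 to 293 in Experiment B, lay above KEAP1-KO cells (106 to 147), and DKO tumors (198 to 282) above DKO cells (106 to 149). Against culture, where 23.9 to 27.6% of all features were higher in tumors, 1 of 11 tested rose in WT tumors (Tgm1, the transglutaminase that cross-links the cornified envelope, 1.97, adjusted p = 4.31e-06), 3 of 11 in Experiment A KEAP1-KO tumors, 4 in those of Experiment B and 4 in DKO tumors, and none fell. Between KEAP1-KO and WT tumors 3 of 11 rose and 2 fell, against 5.61% and 7.49% of all features. The cornified envelope proteins Sprr1b (3.32, adjusted p = 4.76e-05) and Sprr1a (3.08, adjusted p = 1.6e-05) and the keratinocyte 14-3-3 protein Sfn (1.11, adjusted p = 0.00696) rose, and Tgm1 (-1.27, adjusted p = 0.0241) and the water channel Aqp3 (-0.92, adjusted p = 0.0406) fell. Loricrin, filaggrin, involucrin, Krtdap, Trp63, Krt1, Krt10 and the hair keratins are not analysed here. Hair follicle markers (4 of 16 analysed) summed to 83.7 to 99.2 in WT, 97.0 to 114 in KEAP1-KO and 60.6 to 78.6 in DKO cells, and to 68.5 to 81.9 in WT, 34.1 to 47.3 and 29.8 to 46.7 in KEAP1-KO and 33.3 to 47.8 in DKO tumors. Of 3 tested against culture, 3 fell in each group of KEAP1-KO tumors, 1 rose and 1 fell in DKO tumors and none passed in WT tumors. By comparison, 14.1 to 15.9% of all features were lower in tumors over the 4 comparisons. Sebaceous gland markers (4 of 9 analysed) summed to 35.4 to 63.9 in culture, 27.4 to 59.4 in WT tumors and 14.2 to 32.8 in the edited tumors, and 1, 3, 2 and 2 of 4 fell in WT, KEAP1-KO of Experiments A and B, and DKO tumors. The summed normalized counts of Krt5, Krt14, Krt16 and Krt17 were 53.6 to 94.9 in culture and 43.5 to 109 in all tumors but KEAP1-KO replicate 4 of Experiment B, which had 179 and also the highest cornified sum of its group (293). Whether any of this RNA came from skin was not tested.

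Low keratins were seen in tumors or scattered over libraries. Krt20, a type I keratin of gut and urothelium, was at 0 in all 12 cultures. It was at 5.39, 7.62, 3.66 and 12.7 in WT, 5.56, 6.94, 5.8 and 11.7 in KEAP1-KO of Experiment A, 5.99, 12.1, 8.12 and 13.6 in KEAP1-KO of Experiment B and 7.67, 4.12, 1.62 and 6.82 in DKO tumors. Every tumor lay above every culture, and against a floor of 3 reads over the culture group the mean was at least 8.96-fold higher in WT, 10.98-fold and 14.6-fold in KEAP1-KO and 6.87-fold in DKO tumors. Krt20 passed the expression filter through the tumors alone. Krt19, a type I simple-epithelium keratin measured by a processed transcript, was at 0, 0, 3.25 and 5.36 in WT, 0, 0, 4.71 and 0 in KEAP1-KO and 1.95, 3.15, 0 and 0 in DKO cells. Krt19 in tumors was at 34.1, 0, 0 and 2.55 in WT, 3.33, 2.31, 1.93 and 0.973 in KEAP1-KO of Experiment A, 0, 0, 8.12 and 0 in KEAP1-KO of Experiment B and 2.19, 0, 5.67 and 1.71 in DKO, so that the value of 34.1 in WT replicate 1 stood alone. It was tested only in the fit of all 28 libraries and was not called there. Krt7, the type II partner of Krt19 in simple epithelia, was at 2.28, 2.16, 6.5 and 3.22 in WT cells, 3.72, 0, 0 and 4.48 in KEAP1-KO cells and 3.91, 0, 0 and 4.27 in DKO cells. Krt7 in tumors was at 2.69, 0.953, 0.914 and 4.24 in WT, 1.11, 8.09, 1.93 and 2.92 in KEAP1-KO of Experiment A, 4.99, 4.65, 4.06 and 5.65 in KEAP1-KO of Experiment B and 5.48, 3.09, 5.67 and 5.97 in DKO, and it was not called in any comparison that tested it.

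Among the claudins, Cldn12, a claudin without the usual PDZ-binding tail, was the highest. It was at 469.8, 469, 460.5 and 473 in WT cells, 434, 539, 462 and 481 in KEAP1-KO cells and 652, 654, 721 and 719.8 in DKO cells. The DKO cells lay above all other cultures, with a difference of 0.52 ± 0.07 (SE), limma adjusted p = 0.000234 against KEAP1-KO and 0.55 ± 0.07 (SE), limma adjusted p = 8.01e-05 against WT. Cldn12 in tumors was at 342, 318, 292 and 358 in WT, 357, 369, 374 and 392 in KEAP1-KO of Experiment A, 316, 357, 351 and 413 in KEAP1-KO of Experiment B and 302, 258, 325 and 301 in DKO. There the DKO group was not higher, at -0.27 ± 0.09 (SE), limma adjusted p = 0.0874 against KEAP1-KO, and the effect of NRF2 loss differed between tumors and culture by -0.79 ± 0.12 (SE), limma adjusted p = 0.000101.

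Cldn5, the claudin of endothelial tight junctions, was nearly absent from culture. It was at 0, 0, 1.08 and 0 in WT cells and at 0 in all KEAP1-KO and DKO cells. Cldn5 in tumors was at 54.8, 31.4, 53.9 and 76.4 in WT, 72.3, 55.5, 50.2 and 60.3 in KEAP1-KO of Experiment A, 46.9, 58.6, 83.2 and 97.2 in KEAP1-KO of Experiment B and 25.2, 33, 25.1 and 44.3 in DKO. The mean was at least 87.3-fold and 105-fold higher in KEAP1-KO tumors of Experiments A and B and at least 43.3-fold higher in DKO tumors than the floor of 3 reads over the culture group, and 200-fold higher in WT tumors than WT cells (counting interval 35.7 to 7959, from 1 read in culture). The WT ratio is not set on that floor, so that it cannot be ranked against the other groups. DKO tumors lay below all KEAP1-KO tumors of Experiment B, with a difference of -1.05 ± 0.26 (SE), limma adjusted p = 0.0162. Without KEAP1-KO replicate 4 of Experiment B it was -0.89 with an adjusted p of 0.0588. Endothelial markers (10 of 10 analysed) summed to 1413 to 1852 in KEAP1-KO and 1252 to 1358 in DKO tumors of Experiment B, to 1324 to 1621 in KEAP1-KO and 1408 to 1608 in WT tumors of Experiment A, and to 93.8 to 134 in culture. Of these 10, 2 fell from KEAP1-KO to DKO tumors, against 4.64% of all features, namely Esam (-0.65, adjusted p = 0.00695) and Flt1 (-0.58, adjusted p = 0.00328). Pecam1 (-0.25, adjusted p = 0.329) and Cdh5 (-0.27, adjusted p = 0.307) missed the threshold. Their part in the Cldn5 difference was not tested.

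The remaining claudins were low. Cldn1, a claudin of epidermis and many other epithelia, was at 1.14, 3.24, 0 and 2.15 in WT cells, 0, 0, 0.943 and 0.895 in KEAP1-KO cells and 1.95, 0, 0 and 0 in DKO cells. Cldn1 in tumors was at 6.29, 0.953, 2.74 and 5.94 in WT, 0, 2.31, 2.9 and 1.95 in KEAP1-KO of Experiment A, 0, 1.86, 0 and 1.13 in KEAP1-KO of Experiment B and 0, 2.06, 1.62 and 1.71 in DKO. Cldn15, a pore-forming claudin of the gut, ranged over 0 to 10.7 in culture and 1.95 to 10.2 in tumors. Cldn20 ranged over 2.62 to 11.6 and 0 to 6.82. Cldn20 was lower in tumors than culture for KEAP1-KO of Experiment B (-0.67, adjusted p = 0.0279) and DKO (-0.68, adjusted p = 0.0237), and neither Cldn15 nor Cldn20 passed a test between genotypes. For KEAP1-KO against WT cells the Cldn15 difference was 1.04 (adjusted p = 0.0648) with a 95% interval of 0.28 to 1.79, and the groups, at 3.77 to 9.85 and 0 to 3.25 normalized counts, did not overlap. Cldn23 ranged over 0 to 5.24 and 0 to 10.2 and, like Cldn1, failed the filter.

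Of the desmosome genes, desmoplakin and plakoglobin were present at low levels. Dsp, the link to keratin, was at 28.5, 11.9, 27.1 and 21.5 in WT cells, 13, 17.5, 16 and 15.2 in KEAP1-KO cells and 29.3, 13.7, 11.5 and 12 in DKO cells. Dsp in tumors was at 14.4, 15.2, 21 and 24.6 in WT, 28.9, 28.9, 20.3 and 14.6 in KEAP1-KO of Experiment A, 19, 22.3, 16.2 and 44.1 in KEAP1-KO of Experiment B and 17.5, 19.6, 12.1 and 17.1 in DKO. All groups overlapped with a neighbour and Dsp passed no test. Jup, measured by a processed transcript, was at 18.2, 5.4, 15.2 and 3.22 in WT cells, 8.36, 9.61, 8.49 and 11.6 in KEAP1-KO cells and 9.77, 10.5, 10.5 and 6.83 in DKO cells. Jup in tumors was at 84.4, 25.7, 22.8 and 18.7 in WT, 24.5, 15, 29.9 and 16.5 in KEAP1-KO of Experiment A, 36.9, 30.7, 35.5 and 38.4 in KEAP1-KO of Experiment B and 29.6, 20.6, 36.4 and 26.4 in DKO. Every tumor lay above the cultures of its genotype, by 1.45 ± 0.34 (SE), limma adjusted p = 0.00126 in WT, 0.88 (adjusted p = 0.0427) and 1.54 (adjusted p = 0.000672) in KEAP1-KO and 1.25 (adjusted p = 0.00394) in DKO. Jup is also made by endothelium and muscle, whose marker sums were in every tumor above those of the cultures of its genotype, and their part was not tested.

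For plakophilin 2, the plakophilin of simple epithelia and heart, the intron-retaining transcript fell with KEAP1 loss in culture and in tumors. It was at 116, 127, 93.2 and 96.6 in WT cells, 55.7, 47.2, 43.4 and 47.5 in KEAP1-KO cells and 52.8, 31.5, 37.7 and 34.2 in DKO cells. All WT cultures lay above all edited ones, with -1.09 ± 0.16 (SE), limma adjusted p = 0.000407 for KEAP1-KO and -1.40 ± 0.16 (SE), limma adjusted p = 4.9e-05 for DKO, and DKO differed from KEAP1-KO by -0.30 (adjusted p = 0.332). Pkp2 in tumors was at 84.4, 33.3, 37.5 and 49.2 in WT, 23.3, 23.1, 8.7 and 20.4 in KEAP1-KO of Experiment A, 18, 19.5, 15.2 and 15.8 in KEAP1-KO of Experiment B and 16.4, 22.7, 21.9 and 15.3 in DKO. WT tumors lay above the KEAP1-KO tumors of Experiment A, with -1.25 ± 0.28 (SE), limma adjusted p = 0.00649, and without WT replicate 1 the difference was smaller but still passed (-0.98). DKO against KEAP1-KO tumors gave 0.12 ± 0.28 (SE), limma adjusted p = 0.877 (95% interval -0.48 to 0.71). A second Pkp2 transcript listed without a symbol was not called for KEAP1-KO against WT in culture (-0.77, adjusted p = 0.259) or in tumors (-0.32, adjusted p = 0.656).

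Plakophilin 4, which also sits at adherens junctions, is measured by a transcript subject to decay. It was at 116, 188, 93.2 and 129.8 in WT cells, 154, 212, 179 and 136 in KEAP1-KO cells and 221, 219.6, 181 and 221 in DKO cells. DKO exceeded WT cells by 0.70 ± 0.19 (SE), limma adjusted p = 0.021, with overlap of 1 WT culture and 1 DKO culture. Pkp4 in tumors was at 65.6, 58.1, 84.1 and 63.7 in WT, 185, 118, 125 and 66.2 in KEAP1-KO of Experiment A, 155, 147, 128 and 63.3 in KEAP1-KO of Experiment B and 25.2, 92.7, 212 and 115 in DKO, and no genotype comparison passed. Pkp1, of stratified epithelia, was at 11.4, 8.63, 9.75 and 3.22 in WT cells, 4.64, 3.49, 6.6 and 4.48 in KEAP1-KO cells and 6.84, 6.31, 2.1 and 4.27 in DKO cells. In tumors it ranged over 1.91 to 11 and was not called. Dsg3, the desmoglein of basal epidermis, ranged over 0.895 to 6.5 in culture and 1.83 to 10.2 in tumors, and Pkp3 over 0 to 10.5 and 0 to 5.72. A further 7 transcripts of Pkp2, Pkp3 and Pkp4 without a symbol in the table were looked at. Of these a Pkp3 transcript that retains an intron fell between WT and KEAP1-KO tumors (-1.65, adjusted p = 0.0043), and the other 6 were not called in that comparison. Another Pkp4 transcript subject to decay was higher in DKO than WT cells (0.76, limma adjusted p = 0.0446). It was lower in DKO tumors than DKO cells (-1.35, limma adjusted p = 0.029).

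Cdh1 was close to 0 in culture, at 1.14, 0, 0 and 1.07 normalized counts in WT cells, 2.79, 0, 1.89 and 0.895 in KEAP1-KO cells and 0, 2.1, 1.05 and 1.71 in DKO cells. Cdh1 in tumors was at 20.7, 10.5, 7.31 and 8.49 in WT, 5.56, 3.47, 3.86 and 0 in KEAP1-KO of Experiment A, 2.99, 7.45, 5.07 and 2.26 in KEAP1-KO of Experiment B and 15.3, 28.8, 20.2 and 10.2 in DKO. KEAP1-KO tumors lay below the WT tumors of Experiment A and the DKO tumors of Experiment B without overlap, with -1.12 ± 0.35 (SE), limma adjusted p = 0.0425 and 1.40 ± 0.35 (SE), limma adjusted p = 0.017. Cdh1 passed the expression filter of the tumor fit through the WT and DKO tumors, where it was high. Its place among the genes tested in tumors, and its count among those called, rest on those groups. The fall on KEAP1 loss passed the threshold narrowly and lost it without WT replicate 1 (-0.88, adjusted p = 0.137), and the rise on NRF2 loss lost it without KEAP1-KO replicate 4 of Experiment B (1.27, adjusted p = 0.0554). Against culture the mean was 21.2-fold higher in WT tumors (counting interval 5.65 to 182) and 15.4-fold in DKO tumors (6.26 to 48.2), and 2.32-fold (0.803 to 7.51) and 3.19-fold (1.28 to 10.3) in KEAP1-KO tumors. The WT cells held 2 reads, below the floor of 3 reads, so that the WT and DKO ratios cannot be ranked. Tested directly, the effect of KEAP1 loss in tumors minus that in culture was -1.35 (adjusted p = 0.064) and that of NRF2 loss 1.44 (adjusted p = 0.058), and both missed the threshold. The leukocyte, fibroblast, adipocyte and lung epithelium marker sums given above were likewise lower in KEAP1-KO than in the WT or DKO tumors of the same experiment. Their part in the Cdh1 values was not tested.

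**Figure D4:**
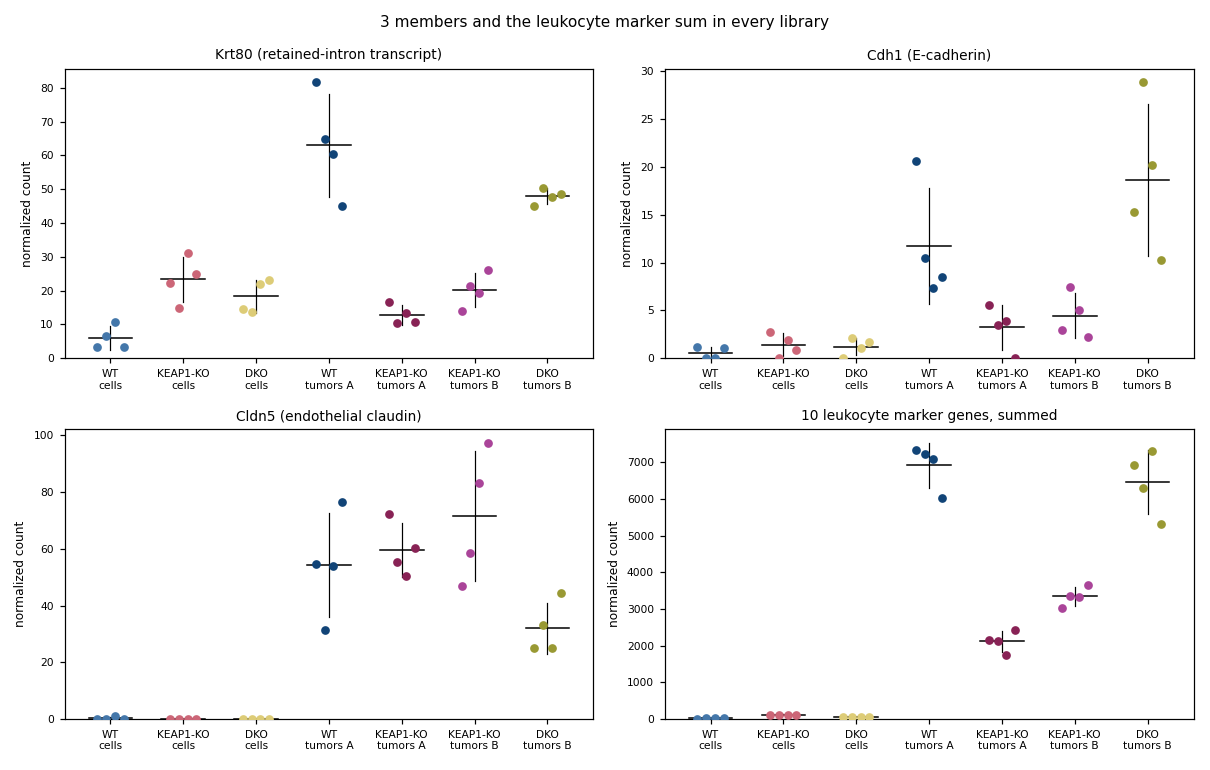
Normalized counts of Krt80, Cdh1 and Cldn5 and the sum of 10 leukocyte marker genes in each of the 28 libraries (points) by group, with the group mean (horizontal line) and its SD (vertical line). Cldn5 is at or near 0 in every culture, and Krt80, Cdh1 and the leukocyte sum are lower in KEAP1-KO tumors than in the WT or DKO tumors of the same experiment.

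Each tumor group was then set against the cultured cells of its own genotype. The median difference over all features lay above 0, at 0.20 for WT, 0.16 and 0.17 for KEAP1-KO of Experiments A and B, and 0.23 for DKO, and changes are read against that shift. Of the 24 genes tested, 9 differed in WT (38.8% of all features, 24.7% higher and 14.1% lower), 11 in KEAP1-KO of Experiment A (39.6%, 23.9% and 15.8%), 11 in KEAP1-KO of Experiment B (38.8%, 23.9% and 14.9%) and 12 in DKO (43.5%, 27.6% and 15.9%), shares near those of the background. Their medians were -0.16, 0.21, 0.31 and 0.09. The calls were 6 higher and 3 lower in WT, 5 and 6 in KEAP1-KO of Experiment A, 6 and 5 in that of Experiment B, and 6 and 6 in DKO. With quantile normalization the split in WT was 5 and 5, and with median centring it was 5 and 7 in WT and 4 and 6 in KEAP1-KO of Experiment B. Cldn5, Krt20, Jup and Krt18 were higher in all 4 tumor groups, although Krt18 in WT tumors (0.45, adjusted p = 0.0452) came to 0.05 (adjusted p = 0.853) when each library was centred on its median. Jup in KEAP1-KO tumors of Experiment A (0.88, adjusted p = 0.0427) lost its call in 8 of 16 alternatives, with an adjusted p of up to 0.154. Krt18 was higher by 1.27 (adjusted p = 1.41e-06), 0.80 (adjusted p = 0.000558) and 1.10 (adjusted p = 9.26e-06) in the other groups. Pkp2, as its intron-retaining transcript, was lower in every tumor group, with differences of -1.10, -1.25, -1.31 and -0.89 on the log2 scale. The second Pkp2 transcript, listed without a symbol, was not called in these comparisons, with differences of 0.22, 0.67, 0.15 and 0.11. Krt8 was lower, with differences of -0.75 (adjusted p = 5.03e-06) in WT, -0.29 (adjusted p = 0.0436) and -0.60 (adjusted p = 0.0001) in KEAP1-KO and -0.66 (adjusted p = 2.56e-05) in DKO, but after quantile normalization the same differences were -0.07, 0.25, -0.02 and 0.06, none of which passed. Cldn12 was lower, with differences of -0.51, -0.35, -0.41 and -1.20, and in KEAP1-KO of Experiment A it came to 0.0016 after quantile normalization. Krt80 was higher in WT (2.78, adjusted p = 3.1e-10) and DKO tumors (1.24, adjusted p = 9.62e-05) and lower in KEAP1-KO tumors of Experiment A (-0.68, adjusted p = 0.0228). Cdh1 was higher in WT (1.73, adjusted p = 3.49e-05) and DKO tumors (2.07, adjusted p = 2.35e-06), and its differences in KEAP1-KO tumors (0.38, adjusted p = 0.339, and 0.63, adjusted p = 0.0979) missed the threshold, as did the tests of the difference between genotypes given above. Pkp3 was lower in KEAP1-KO (-1.22, adjusted p = 0.0064, and -1.07, adjusted p = 0.0156) and DKO tumors (-1.14, adjusted p = 0.00912), Krt4 was higher in KEAP1-KO tumors (1.15, adjusted p = 8.77e-05, and 0.79, adjusted p = 0.00415), and Krt16 was lower in KEAP1-KO tumors of Experiment A (-1.17, adjusted p = 0.00494). The Pkp3 transcript that retains an intron was not called against culture. Its differences were 0.83 in WT, -1.07 and -0.83 in KEAP1-KO of Experiments A and B, and 0.99 in DKO. Pkp4 was lower in DKO tumors (-1.21, adjusted p = 0.0137), and without DKO replicate 1 the difference was -0.66 with an adjusted p of 0.0926. Cdh1, Cldn5, Krt20 and Krt7 were detected in tumors alone, so that their presence among the genes tested rests on the tumor libraries, and that of Pkp3, detected in culture alone, rests on the cultures. The tests of these genes are therefore no support for a difference between tumors and culture in general.

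**Figure D5:**
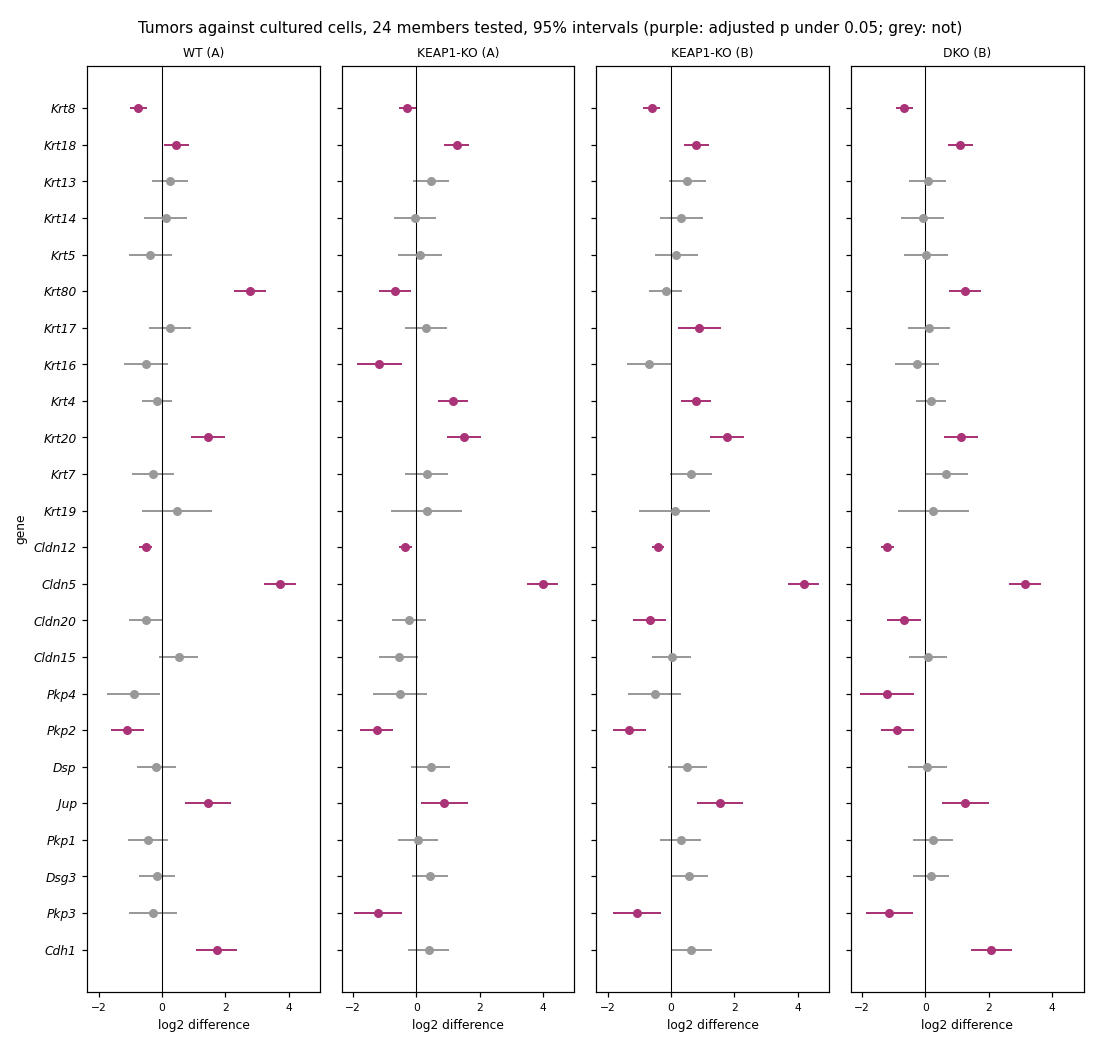
Log2 difference with its 95% interval (limma) between tumors and cultured cells of the same genotype for each gene tested, where purple points passed an adjusted p of 0.05 and grey points did not. Cldn5 and Krt20 lie above 0 and Pkp2 below 0 in every genotype, and the Krt8 values, below 0 here, do not pass after quantile normalization and turn above 0 for KEAP1-KO of Experiment A and DKO.

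Of the 24 genes, 2 passed the test of whether the effect of KEAP1 loss differed between tumors and culture (Krt80 and Krt4, against 5.38% of all features, 1.5% higher and 3.88% lower) and 2 that of NRF2 loss (Krt80 and Cldn12, against 3.67%, 2.12% higher and 1.55% lower), each with 1 higher and 1 lower. With median centring the first split was 3 higher and 1 lower and the second 1 and 2. The partners of these genes were measured as lists. Of 16 tight junction partners tested in tumors, 3 rose and 2 fell from WT to KEAP1-KO, against 5.61% and 7.49% of all features. The junction plaque protein Cgnl1 (2.72, adjusted p = 1.25e-05) and the polarity proteins Pard6b (1.32, adjusted p = 0.000218) and Pard3 (0.46, adjusted p = 0.0167) rose, and the tricellular junction receptor Lsr (-1.77, adjusted p = 0.000897) was among those that fell. From KEAP1-KO to DKO tumors 1 rose (Lsr, 1.89, adjusted p = 0.000784) and 2 fell (the strand protein Ocln, -1.67, adjusted p = 6.11e-07, and Cgnl1, -1.56, adjusted p = 0.00317), against 4.22% and 4.64%. Lsr was at 0 in all 12 cultures and followed the pattern of Cdh1 across tumors, at 18.7 to 34.1 normalized counts in WT, 0 to 6.94 and 2.03 to 5.99 in KEAP1-KO and 19.6 to 29.9 in DKO. In culture, of 11 tested, Cgnl1 (2.82, adjusted p = 1.84e-05) and the scaffold Tjp1 (0.91, adjusted p = 0.0157) rose on KEAP1 loss and 1 fell, against 8.13% and 7.33% of all features. On NRF2 loss 1 of the 11 rose (Pard3) and 2 fell, among them Ocln (-1.46, adjusted p = 1.48e-07), against 3.98% and 4.85% of all features. Ocln was at 214 to 264 in WT, 236 to 274 in KEAP1-KO and 88 to 99.8 in DKO cells.

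Of 16 adherens junction partners tested in tumors, beta-catenin (Ctnnb1, 0.82, adjusted p = 0.0399) and afadin (Afdn, 0.77, adjusted p = 0.000799) rose and Nectin4 (-1.45, adjusted p = 0.00906) fell from WT to KEAP1-KO, against 5.61% of all features higher and 7.49% lower. Ctnnb1 (-1.09, adjusted p = 0.0101) and the laminin receptor chain Itga6 (-1.07, adjusted p = 2.08e-05) fell from KEAP1-KO to DKO, against 4.22% higher and 4.64% lower. Of 12 regulators of the epithelial state tested in tumors, the epithelial factor Klf5 (1.10, adjusted p = 0.000979) rose and Klf4 (-1.48, adjusted p = 0.000668) and the Cdh1 repressor Zeb1 (-0.80, adjusted p = 0.0453) fell from WT to KEAP1-KO, against the same 5.61% and 7.49%. From KEAP1-KO to DKO tumors Snai2, another repressor of Cdh1, rose (1.54, adjusted p = 4.24e-05), as did Klf4 (1.08, adjusted p = 0.0113), and Klf5 fell (-1.22, adjusted p = 0.000653), against 4.22% and 4.64%. In culture, 4 of 11 tested rose and 2 fell from WT to KEAP1-KO cells, against 8.13% and 7.33% of all features, among them the epithelial splicing factor Esrp2 (1.24, adjusted p = 0.0115) and Klf5 (0.73, adjusted p = 4.48e-07), which rose, and Snai2 (-1.03, adjusted p = 1.7e-07) and fibronectin (Fn1, -1.26, adjusted p = 0.00365), which fell. Of the same 11, Snai2 (3.02, adjusted p = 8.48e-12) and Twist1 (0.52, adjusted p = 0.000749) rose and Klf5 (-0.51, adjusted p = 1.81e-05) and Snai1 (-0.51, adjusted p = 0.00753) fell from KEAP1-KO to DKO cells, against 3.98% and 4.85%. Snai2 was at 214 to 226 normalized counts in WT, 104 to 111 in KEAP1-KO and 838 to 952 in DKO cells, and Krt8 and Krt18 fell at both steps. The part of Snai2 and the other regulators in the keratin values was not tested.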

How the data were processed

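RNA was measured by rRNA-depleted, strand-specific RNA-seq in 28 libraries, 4 in each of 7 groups. Per the study's methods, reads were quantified with Salmon 1.5.1 on Galaxy against GENCODE mouse release 35, and iDEP was used downstream. The methods speak of TPM, but the deposited values are log2(normalized count + 4), with a lowest value of 2.0, and 100% of low values are whole multiples of 1 read (tolerance 0.05 reads). The extraction label names liver, against the sample titles, which were followed. Libraries held 4222365 to 7524280 recovered reads, with 13.9 to 23.5% of features at 0. Intervals and floors (3 reads, 95%) cover counting error only.

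Log2 values were tested with limma 3.58.1 (R 4.3.3; trended eBayes, Benjamini-Hochberg over all features kept, threshold 0.05) after features without 5 normalized counts in 4 or more libraries were left out. Genotypes were compared in 1 fit of 16 tumors and 1 of 12 cultures, and tumors with cultures, and effects between them, in 1 fit of all 28 libraries. The fits were tested on simulated data. No covariate was used. KEAP1-KO against WT tumors used Experiment A, and DKO against KEAP1-KO tumors used Experiment B. A count model was not used, since the deposited unit is log2. Figures were drawn with matplotlib 3.10.9. The genes described in full were those called in a genotype comparison and a fixed set of keratins, claudins and junction genes, and lists of marker and partner genes were fixed likewise. Of listed genes outside the 26, up to 4 per list were named, by the largest change among those called. The 26 genes and the lists were chosen with earlier results of these data known. Alternatives were another pseudocount, filters, normalizations, thresholds, a replicate block, fits of the compared groups alone and leaving out each library. No gene coordinates are given beyond the RefSeq promoter windows, since the build of the annotation differs. The result of 1 gene of the tight junction partner list is not reported here.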

Additional observations from a re-analysis of the deposited data

Results flagged for a closer look

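Groups of 4 libraries were searched for 1 library far from the other 3, and 9 of 124 groups held one, where chance gives about 1 in 20. Krt8 in DKO cells was at 2682 normalized counts in replicate 2 and at 2614 to 2625 in the others. Pkp4 in DKO cells was at 181 in replicate 3 and at 219.6 to 221 in the others. Dsp, desmoplakin, in DKO cells was at 29.3 in replicate 1 and at 11.5 to 13.7 in the others. Pkp2 in KEAP1-KO tumors of Experiment A was at 8.7 in replicate 3 and at 20.4 to 23.3 in the others. Krt7 in DKO tumors was at 3.09 in replicate 2 and at 5.48 to 5.97 in the others. The other 4 were single values beside 0: Krt19 at 4.71 in KEAP1-KO cells replicate 3 and at 8.12 in KEAP1-KO tumor replicate 3 of Experiment B, Cldn1 at 1.95 in DKO cells replicate 1 and Cldn5 at 1.08 in WT cells replicate 3.

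In 4 cases the effect of a genotype differed between tumors and culture in a direct limma test. The effect of KEAP1 loss in tumors minus that in culture was -3.46 for Krt80 (adjusted p = 1.22e-07) and 1.31 for Krt4 (adjusted p = 0.00757). That of NRF2 loss was 1.41 for Krt80 (adjusted p = 0.0128) and -0.791 for Cldn12 (adjusted p = 0.000101).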

How the results depend on the processing

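Of 69 pairs of a gene and a comparison that passed the test, 39 kept the call under every alternative, and of 1229 values under an alternative 1127 kept direction and side of the threshold, 99 lost the call and 3 changed sign. The sign changed under quantile normalization only, for Krt8 in KEAP1-KO tumors of Experiment A against culture (0.25) and in DKO tumors against culture (0.064), and for Cldn12 in KEAP1-KO tumors of Experiment A against culture (0.0016), and the cause was not tested. With a filter on a mean of 25 normalized counts, which leaves fewer genes, 3 genes changed between KEAP1-KO and WT cells, and 6, 5 and 7 between tumors and culture in KEAP1-KO of Experiments A and B and in DKO. With an added threshold of 1 on the log2 difference, 3 changed between KEAP1-KO and WT cells, 1 between DKO and KEAP1-KO cells, 3 between DKO and WT cells, 7 and 5 between tumors and culture in KEAP1-KO of Experiments A and B, and 1 in the effect of NRF2 loss between tumors and culture. With median centring, 4 differed in the effect of KEAP1 loss between tumors and culture. Leaving out 1 library at a time gave 2 to 5 genes for DKO against KEAP1-KO tumors, with 2 without KEAP1-KO replicate 4 of Experiment B, where Cldn5 (-0.89, adjusted p = 0.0588) and Cdh1 (1.27, adjusted p = 0.0554) were lost. It gave 2 to 4 for the effect of NRF2 loss between tumors and culture, with 4 without DKO tumor replicate 4. The ranges were 3 to 4 for KEAP1-KO against WT tumors, 5 to 6 for KEAP1-KO against WT cells, 3 to 3 for DKO against KEAP1-KO cells and 5 to 6 for DKO against WT cells. For tumors against culture they were 8 to 9 in WT, 8 to 10 and 9 to 11 in KEAP1-KO of Experiments A and B and 10 to 13 in DKO, and 2 to 3 for the effect of KEAP1 loss. Cdh1 between KEAP1-KO and WT tumors lost its call in 11 of 18 alternatives (adjusted p from 0.0186 to 0.14), and Cldn5 between DKO and KEAP1-KO tumors in 5 of 19 (0.00906 to 0.074). With the replicate block, 4 genes changed in each tumor comparison and 5, 3 and 6 in the culture comparisons, the same counts as without it. Same-numbered libraries had correlations of -0.0319 to 0.033 over all features, and only in WT against DKO cells was each library closest to its own number. These correlations cannot tell whether same-numbered tumors came from the same mouse, and the main fits did not use a pairing. Differences of genes under about 5 normalized counts, such as Krt4, Cdh1 and Pkp3 in their low groups, rest on few reads.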
